A study of Mus musculus and Rattus norvegicus with 2 samples.

Results

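The miR-15/16 family is a group of miRNAs that carry the same seed, the bases by which a miRNA pairs with its target mRNAs. Its members were found by name, as rows annotated miR-15a, miR-15b, miR-16, miR-195, miR-322 or miR-497 of any arm. Rows of any label that shared the first 18 nt of the most abundant mouse sequence of such a name were added. This gave 8 mature miRNAs of 262 told apart in both tables together, of which 7 had mouse reads and 7 had rat reads. They comprised 1395 mouse reads over 45 sequences and 3379 rat reads over 66 sequences, of 691381 and 2102735 listed reads.

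Both libraries were made from purified sperm of the cauda epididymis, where mature sperm are held before ejaculation. Sperm of C57BL/6 mice aged 2 months gave the mouse library, and sperm of young adult Sprague Dawley rats weighing 450 g gave that of the rat; RNA was taken up in Trizol and inserts had 18 to 45 nt. No treatment or genetic change is given for either. Each species is 1 library, and the number of animals behind it is not stated, so no replicate check was possible and species and library cannot be told apart.

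Members of this family are best known for repressing mRNAs of cell cycle and survival proteins, among them cyclins and the anti-apoptotic protein BCL2. miR-16 is among the most widely expressed miRNAs of mammals and is often used as a reference in miRNA measurements. A mature miRNA is cut from a hairpin precursor, and the place of the cut and later trimming or addition of bases at the 3′ end give it several forms.

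The mature sequences of the 5p arms are shown because the members differ only outside the seed, which is in capitals (bases 2 to 8). They are the mouse sequences of RefSeq, build GRCm38.p6, and the deposited name miR-497-5p was matched to miR-497a-5p.
miR-16-5p: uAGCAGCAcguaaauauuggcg
miR-195a-5p: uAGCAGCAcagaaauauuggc
miR-15a-5p: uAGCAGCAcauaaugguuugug
miR-15b-5p: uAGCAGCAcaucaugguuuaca
miR-497a-5p: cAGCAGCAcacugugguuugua
miR-322-5p: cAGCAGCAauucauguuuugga
All 6 have the seed AGCAGCA. Counted from the 5′ end, miR-195a-5p differs from miR-16-5p by G10A and U11G only and matches it at 19 of 21 bases. miR-15a-5p matches miR-16-5p at 16 of 22 bases, miR-15b-5p at 14, miR-322-5p at 12 and miR-497a-5p at 11. Each of the other members differs from miR-16-5p at 1 or more bases within the first 18 nt, which tell the members apart, and all but miR-195a-5p also differ past them.

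In the mouse genome (GRCm38) the genes lie in 4 groups. Mir16-1 on chromosome 14, at 61631880 to 61631972 on the minus strand, lies 54 bases from Mir15a, at 61632027 to 61632110. Both lie inside Dleu2, a non-coding RNA gene, where Mir16-1 overlaps an annotated exon and Mir15a does not. Mir15b and Mir16-2 lie on chromosome 3, at 69009772 to 69009835 and 69009902 to 69009996 on the plus strand, in an intron of Smc4, a condensin subunit gene. Mir497 and Mir195a lie on chromosome 11, at 70234717 to 70234800 and 70235042 to 70235135 on the plus strand. Mir322 lies on the X chromosome at 53054255 to 53054349 on the minus strand. Mature miR-16-5p is the same from both of its genes, so its reads cannot be divided between chromosomes 14 and 3.

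The family was a larger part of the miRNA reads in the rat than in the mouse. It held 5.93% of the mouse miRNA reads (95% interval 5.63 to 6.23) and 12.9% of the rat miRNA reads (12.5 to 13.3), 2.18-fold more in the rat. The log2 ratio of mouse over rat was -1.12 (-1.22 to -1.03). As a share of all listed reads the order turned, with 0.202% for the mouse (0.191 to 0.213) against 0.161% for the rat (0.155 to 0.166), a log2 ratio of 0.33 (0.24 to 0.42). The direction between species depends on which reads are the base. The miRNA total was 23542 of the 691381 listed mouse reads and 26155 of the 2102735 listed rat reads. The contrast is between bulk libraries, where fewer cells of a type and less RNA per cell cannot be told apart.

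Identifiers in the tables run to 167458 (mouse) and 200389 (rat), and the tables used here skip 78279 and 63001 of them. Reads behind skipped identifiers enter no count given here.

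Nearly all family reads were miR-16-5p. It had 1299 mouse reads (1229 to 1372, a Poisson interval) and 3239 rat reads (3128 to 3353), which was 93.1% (91.7 to 94.4) and 95.9% (95.1 to 96.5) of the family. Scaled to the miRNA total these were 55178 and 123839 reads per 1000000 (RPM), 2.24-fold higher in the rat (log2 ratio -1.17, interval -1.26 to -1.07). By reads it had rank 5 among the mouse miRNAs and rank 4 among those of the rat. Scaled to all listed reads it had 1879 RPM in the mouse against 1540 RPM in the rat, a log2 ratio of 0.29 (0.19 to 0.38).

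miR-195a-5p, the member closest to miR-16-5p in sequence, went the other way when scaled to miRNA reads. It had 60 mouse reads (45.8 to 77.2) and 29 rat reads (19.4 to 41.6). This was 2549 and 1109 RPM of miRNA reads, 2.30-fold higher in the mouse (log2 ratio 1.20, interval 0.54 to 1.89). Scaled to listed reads its log2 ratio was 2.57 (1.99 to 3.35), so it was higher in the mouse under both scalings. Per 1000 miR-16-5p reads, a ratio that needs no library total, the mouse had 46.2 of miR-195a-5p and the rat 8.95. That is 5.16-fold more in the mouse, with an interval of 3.24 to 8.37. It was member 2 of the family by reads in the mouse and member 4 in the rat.

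miR-497-5p, from the same gene cluster as miR-195a-5p, had 7 mouse and 6 rat reads. Per 1000 miR-16-5p reads the mouse had 5.39 and the rat 1.85, and the interval of that 2.91-fold difference (0.835 to 10.5) included no difference. Its log2 ratio was 0.37 (-1.42 to 2.22) by miRNA reads and 1.53 (0.03 to 3.68) by listed reads, the second interval lying just above 0.

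**Figure D1:**
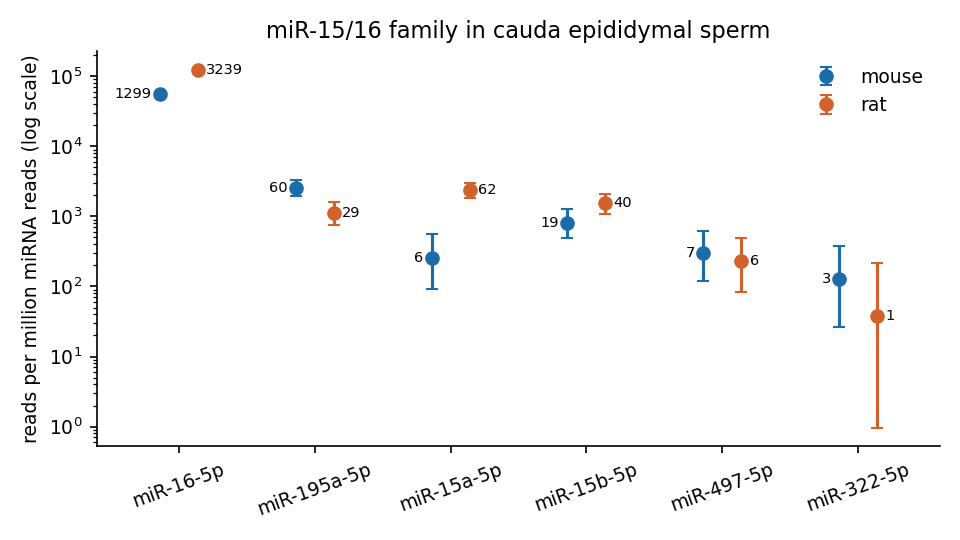
Levels in RPM of miRNA reads (log axis) of the 6 members of the 5p arm in the mouse and the rat library. Points are the single libraries, bars the Poisson 95% intervals and the printed numbers the reads; miR-16-5p lies higher in the rat (123839 against 55178) and miR-195a-5p higher in the mouse (2549 against 1109).

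miR-15a-5p, made beside miR-16 in Dleu2, was the member whose values depended most on how the tables are read. It had 6 mouse reads (2.20 to 13.1) and 62 rat reads (47.5 to 79.5), or 255 and 2370 RPM of miRNA reads. The log2 ratio was -3.21 (-4.72 to -2.01). Its most abundant mouse sequence by the restored counts, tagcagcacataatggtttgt, is one of the lines with a month in place of its identifier and no count. Read as a count that month adds 11 reads. With 17 mouse reads the log2 ratio was -1.74 (-2.61 to -0.95) by miRNA reads and -0.30 (-1.18 to 0.48) by listed reads. Per 1000 miR-16-5p reads, miR-15a-5p then had 13.1 in the mouse (7.62 to 21), against 19.1 in the rat (14.7 to 24.5). Without the restored line the mouse had 4.62 (1.70 to 10.1), which did not overlap with the rat interval.

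None of the 62 rat reads of miR-15a-5p carried its name. Of these, 46 were annotated as a microRNA precursor entry and 16 as miR-15b-5p, with 2 mismatches to it. By deposited names alone the rat would have no miR-15a-5p.

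miR-15b-5p, made beside miR-16 in Smc4, showed no difference beyond counting error when set against miR-16-5p. It had 19 mouse reads (11.4 to 29.7) and 40 rat reads (28.6 to 54.5), or 807 and 1529 RPM of miRNA reads. Per 1000 miR-16-5p reads this was 14.6 and 12.3, and the interval of the mouse over rat ratio of 1.18 ran from 0.645 to 2.10. Its log2 ratio was -0.92 (-1.79 to -0.10) by miRNA reads and 0.51 (-0.34 to 1.35) by listed reads.

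miR-322-5p, the X-linked member, had 3 mouse reads (0.619 to 8.77) and 1 rat read (0.0253 to 5.57). No difference was detectable at this depth. Reads of the opposite, 3p arms were 1 mouse read of miR-16-2-3p and 2 rat reads of miR-15b-3p. Where such an arm had 0 reads, the limit of 3 counts allows it up to 0.215% of the mouse family reads or 0.0888% of those of the rat.

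**Figure D2:**
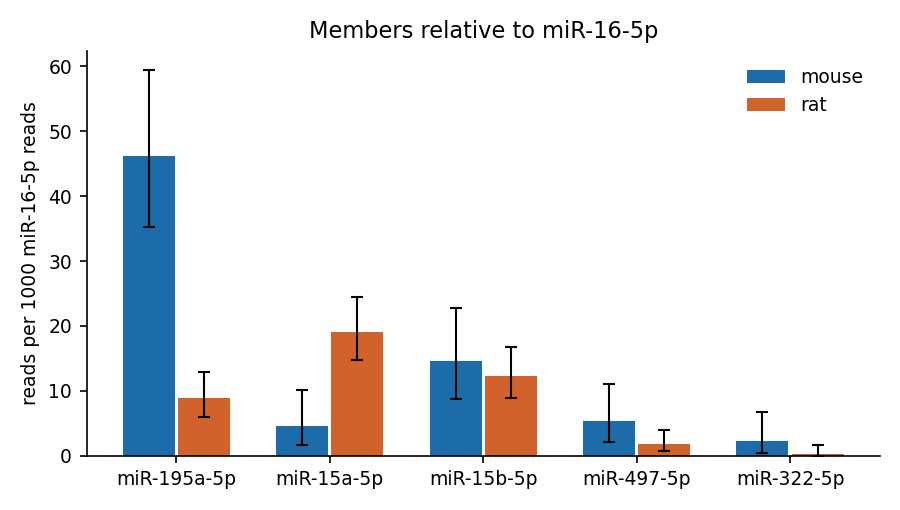
Reads of each other member of the 5p arm per 1000 miR-16-5p reads, with Poisson 95% intervals of the member's count as error bars; the restored mouse count of miR-15a-5p is not included. miR-195a-5p stands at 46.2 (mouse) and 8.95 (rat), while the intervals of miR-15b-5p overlap.

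Over all miRNAs, at least 10 reads in 1 of the libraries were found for 100 miRNAs, of which 36% were at least 2-fold higher in the rat and 24% in the mouse by RPM of miRNA reads, 60% either way. A miRNA could enter through the library where it was high, as miR-486-5p did with 79 mouse and 0 rat reads and miR-15a-5p with 6 and 62, which raises these shares; 58 of the 100 had at least 10 reads in both. The family had 4 members among these, of which miR-16-5p and miR-15a-5p were at least 2-fold higher in the rat and miR-195a-5p in the mouse. Their median log2 ratio was -1.04, against -0.31 over the 100 miRNAs. By listed reads, 16% were at least 2-fold higher in the rat and 54% in the mouse, 70% either way, with 1 member of the family each way, miR-15a-5p and miR-195a-5p. With its restored line miR-15a-5p, at a log2 ratio of -0.30, was no longer 2-fold higher in the rat on this base. Without the restored line, the medians by listed reads were 0.40 for the family and 1.08 over all.

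Both libraries held at least 100 reads of 18 other miRNAs. The 5 nearest to miR-16-5p in log2 ratio differed from it by 0.73 to 0.96 over these 2 libraries. They were miR-30d-5p (153 and 230 reads, log2 ratio -0.44), miR-22-3p (838 and 1249, -0.42) and miR-26a-5p (170 and 223, -0.24) on one side. On the other were miR-21a-5p (126 and 610, -2.12) and miR-6240 (186 and 849, -2.04). No miRNA of this abundance lay within 0.7 of miR-16-5p. In the rat, 0 of the reads assigned to miR-6240 began at its RefSeq 5′ end, so its value is that of a sequence filed under this name.

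**Figure D3:**
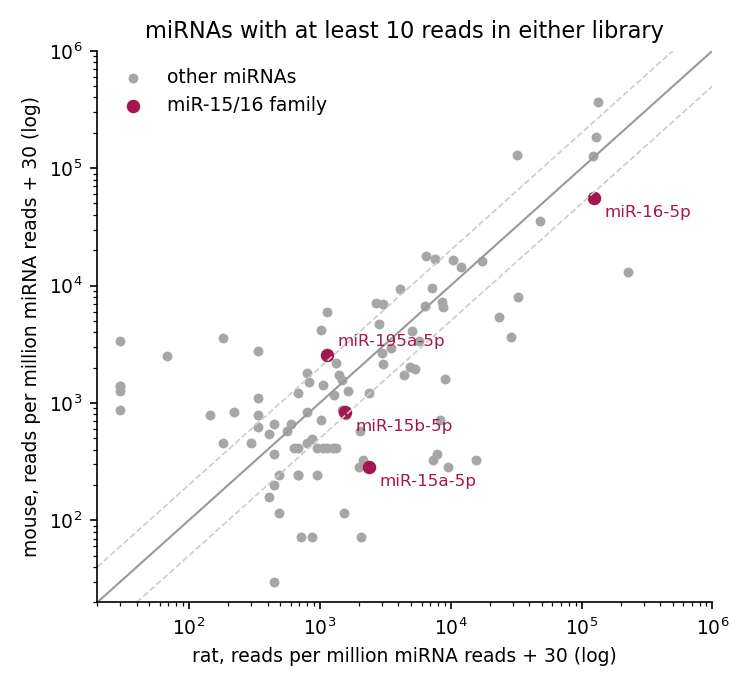
Mouse against rat levels of the 100 miRNAs with at least 10 reads in either library, in RPM of miRNA reads plus 30 on log axes, the family in red. The solid line marks equal levels and the dashed lines a 2-fold difference in the values as plotted; miR-16-5p lies just past the 2-fold line toward the rat and miR-195a-5p past that toward the mouse.

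miRNAs with a seed overlapping that of the family, or lying next to miR-322 in its cluster, were low. miR-103-3p and miR-107-3p, which share their first 18 nt, had 9 mouse and 32 rat reads together. miR-351-5p, of the miR-322 cluster, had 2 and 4. miR-503-5p, miR-450a-5p, miR-450b-5p and miR-542-3p had 0 listed reads in both.

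Markers of germ cells and of other cells a sperm sample can hold differed between the libraries as well. The 3 miRNAs of male germ cells (miR-34b-5p, miR-34c-5p and miR-449a-5p) summed to 14910 RPM of miRNA reads in the mouse against 244007 in the rat. The 3 markers of smooth muscle and stroma summed to 129258 and 33340, nearly all of it miR-143-3p, which was higher in the mouse. The other members of that list did not follow it, with 15 and 15 reads of miR-145a-5p and 9 mouse and 16 rat reads of miR-199a-3p. The 4 red cell markers summed to 4035 and 459, with 79 mouse and 0 rat reads of miR-486-5p. miR-451a, the defining red cell miRNA, had 15 and 11 reads and miR-144-3p 0 in both. The 4 white cell markers had 1 and 3 reads, with miR-223-3p at 0 in both, and the 5 epithelial markers 237 and 141. Of the epithelial reads 219 and 107 were miR-141-3p, while miR-200a-3p was higher in the rat with 5 mouse and 24 rat reads. The part of these cells in the family's values was not tested.

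The reads of miR-16-5p differed mainly at the 3′ end, and cutting and later trimming cannot be told apart in them. The most abundant forms are shown with added bases, those not in the precursor, in capitals; bases are written as sequenced DNA.
21 nt: tagcagcacgtaaatattggc
22 nt: tagcagcacgtaaatattggcg
23 nt, templated: tagcagcacgtaaatattggcgt
23 nt, added A: tagcagcacgtaaatattggcgA
22 nt, added A: tagcagcacgtaaatattggcA
The mouse precursors continue past the mature end as follows, with those bases in capitals, and part ways at the second of them.
Mir16-1: uagcagcacguaaauauuggcgUUAA
Mir16-2: uagcagcacguaaauauuggcgUAGU

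The 5′ end was nearly fixed, with 1296 of 1299 mouse reads (99.8%) and 3235 of 3239 rat reads (99.9%) starting at the mature 5′ end. The seed was therefore unshifted in nearly all reads. The 3′ end varied. The form of 21 nt, 1 base shorter than the RefSeq mature sequence, led in both, with 732 mouse reads (56.4%, 53.6 to 59.1) and 1912 rat reads (59.0%, 57.3 to 60.7). The full 22 nt form held 518 mouse reads (39.9%, 37.2 to 42.6) and 1094 rat reads (33.8%, 32.1 to 35.4), a larger share in the mouse with intervals that did not overlap.

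Longer forms were more frequent in the rat. The templated form of 23 nt had 16 mouse reads (1.23%, 0.706 to 1.99) and 111 rat reads (3.43%, 2.83 to 4.11). Templated here means only that the bases match the precursor. A T added to the 22 nt form gives the same read, so it cannot be told apart from a longer cut. Forms in which a base not in the precursor followed the full 22 nt had 3 mouse reads (0.231%, 0.0477 to 0.673) and 42 rat reads (1.30%, 0.936 to 1.75). Of these, the form with 1 added A had 2 mouse reads and 36 rat reads. All reads of both kinds are listed under precursor entries and none under the mature name, so a count of names misses them.

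Added 3′ bases of any kind were on 9 mouse reads (0.693%, 0.317 to 1.31) and 54 rat reads (1.67%, 1.25 to 2.17), intervals that overlapped. Among those counted, additions made only of A led in both, with 6 and 45 reads, against 2 and 3 for T, 1 and 3 for C and 0 and 2 for G. A T after the 22 nt form or a G after the 21 nt form matches the precursor and was not counted as added. The counts by base therefore do not rank the bases that were added. The longest forms were of 25 nt, with 2 mouse reads of tagcagcacgtaaatattggcgttT, which continues along Mir16-1 before its added T. The rat form of 24 nt that ends in templated TT had 2 reads. Mismatches to the precursors were at the positions of the deposited mismatches in all 24 mouse and all 51 rat sequences of miR-16-5p. The deposited mismatches of the rat were set by the authors against rat entries. Added bases run on from the first such mismatch and can include a base that matches, as in 1 rat read with an added AAA and 2 deposited mismatches.

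Compared with other miRNAs, miR-16-5p carried few added bases when all kinds were counted. Of the 18 other miRNAs with at least 100 reads in each library, 13 had a RefSeq precursor in the set used here. Among these 13 the median share with added bases was 5% in the mouse against 3.23% in the rat. They include miR-6240, of which only 15 of 186 mouse reads and 0 of 849 rat reads began at its mature 5′ end. Its shares of 5.38% and 7.30% are therefore not like those of the others. let-7c-5p, whose 5% is the mouse median, had internal mismatches in 158 of 380 mouse reads and 132 of 450 rat reads, so many reads assigned to it do not match it. In the mouse all 13 lay above miR-16-5p, the lowest being miR-22-3p at 0.835%, and in the rat 11 did. The mouse interval of miR-16-5p (0.317 to 1.31) overlapped those of miR-22-3p (0.336 to 1.71), miR-141-3p and miR-30a-5p, and not those of the other miRNAs of the 13. Rat reads of the 13 were also aligned to mouse precursors, so a base that matches only the rat precursor would count as added. miR-191-5p had 3.46% and 3.23%, and miR-22-3p 0.835% and 1.76%. For additions made only of A its standing was less low, with 4 of the 13 below miR-16-5p in the mouse and 6 in the rat. In the rat 1.39% of miR-16-5p reads had such an addition, against a median of 1.52%. The rest of the 18, among them miR-34c-5p and miR-143-3p, were not compared here. Sequences with more than 2 mismatches are outside the deposited tables, which limits long additions for every miRNA.

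**Figure D4:**
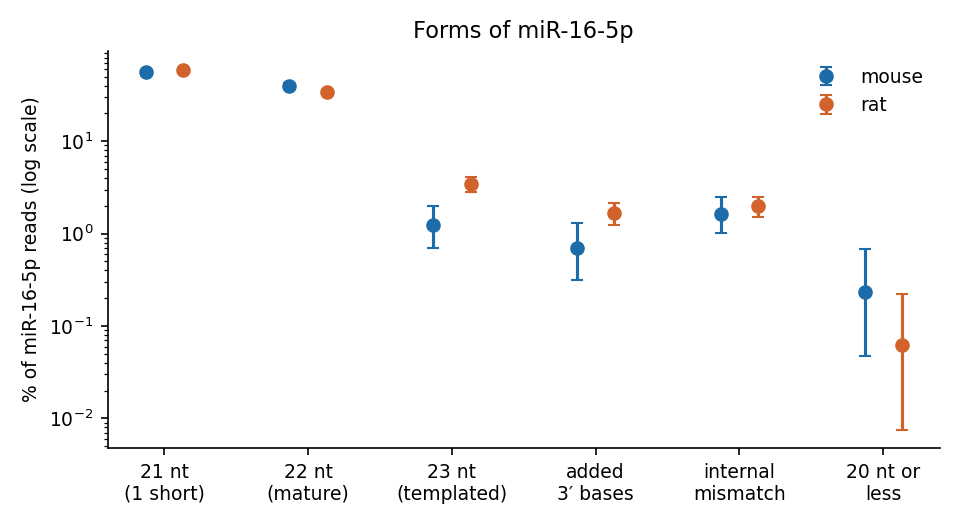
Shares of miR-16-5p reads by form in each library on a log axis, with Clopper-Pearson 95% intervals. The templated 23 nt form stands at 1.23% (mouse) and 3.43% (rat), and the 22 nt form at 39.9% and 33.8%.

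The other members ended in a similar range of lengths. For miR-195a-5p, whose RefSeq form has 21 nt, that form held 52 of 60 mouse reads and 26 of 29 rat reads, and the templated form of 22 nt 6 and 2 reads. miR-15b-5p was divided between 21 and 22 nt, with 6 and 6 reads in the mouse and 20 and 19 in the rat. In the rat, miR-15a-5p was mostly short: 45 of 62 reads had 21 nt, 16 had 20 nt and 1 had the full 22 nt. In the mouse the restored line, also of 21 nt, would hold 11 of 17 reads.

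Added bases on the 5p arms of these members were found in the mouse reads of 3 of them. On a 3p arm, 1 of the 2 rat reads of miR-15b-3p ended in an added T. Of the 19 mouse reads of miR-15b-5p, 3 ended in an added AT (tagcagcacatcatggtttacaAT) and 1 in an added A, against 0 of 40 rat reads. For miR-15a-5p 2 of 6 mouse reads ended in an added T (tagcagcacataatggtttgtgT) and 0 of 62 rat reads had an addition. With the restored line, which has no addition, this was 2 of 17 mouse reads. For miR-322-5p 2 of 3 mouse reads ended in an added T. In these members each such form had at most 3 reads.

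Internal mismatches were on 21 mouse reads of miR-16-5p (1.62%, 1.0 to 2.46) and 64 rat reads (1.98%, 1.52 to 2.52). Position 2, the first base of the seed, had the most in both, with 8 mouse reads (0.616%, 0.266 to 1.21) and 24 rat reads (0.741%, 0.475 to 1.10). No other position had more than 3 mouse or 9 rat reads. At position 2 the A was read as C in 4 mouse and 11 rat reads, as G in 3 and 11 and as T in 1 and 2. Examples are A2G, in tggcagcacgtaaatattggc with 9 rat reads, and A2C, in tcgcagcacgtaaatattggc with 8. The same share at position 2 was 0.504% and 0.529% in miR-191-5p and 0.239% and 1.20% in miR-22-3p. For the mouse both were lower than in miR-16-5p, with intervals (0.282 to 0.829 and 0.0289 to 0.859) that overlapped its own. For the rat miR-191-5p was lower and miR-22-3p higher than it. Among the 13 miRNAs compared for added bases, 7 were lower and 6 higher than miR-16-5p at position 2 in the mouse. In the rat 9 were lower and 4 higher.

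Another recurring mismatch in the rat was A16T, with 7 reads of tagcagcacgtaaattttggcg and 1 of a form of 21 nt. At positions 10 and 11, where miR-16-5p and miR-195a-5p differ, 0 mouse reads and 3 rat reads of miR-16-5p had a mismatch, and no read of miR-16-5p had more than 1 internal mismatch. Reads of 18 or 19 nt that begin tagcacg, aligned 3 bases downstream of the start of miR-16-5p with C4T, were 3 mouse reads and 2 rat reads. They also equal miR-16-5p from its 5′ end with 3 bases left out, which an alignment without gaps cannot show. Likewise, 1 rat read counted with A2T, tgcagcacgtaaatattggc, equals miR-16-5p with the A of position 2 left out.

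**Figure D5:**
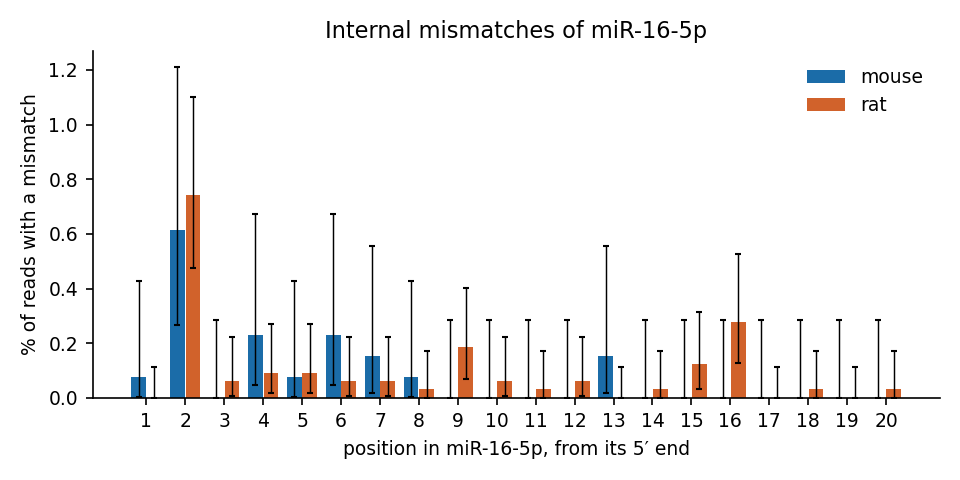
Share of miR-16-5p reads with a mismatch at each of positions 1 to 20, counted from the 5′ end, with Clopper-Pearson 95% intervals. Position 2 is the highest in both libraries, at 0.616% (mouse) and 0.741% (rat).

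Precursor entries held 35 mouse (2.51%) and 204 rat (6.04%) family reads. Reads just outside the rule, with 1 mismatch in the first 18 nt or 1 extra first base and no mature name, were 2 mouse reads and 4 rat reads.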

How the data were processed

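Small RNAs of 18 to 45 nt were measured in 1 mouse and 1 rat library. Per the file headers, the deposited values are counts of reads for each distinct sequence, assigned by the authors to an entry of miRBase, Rfam or GenBank with at most 2 mismatches. The tools and builds named, per the submitters' processing notes, are Bowtie 0.12.7, mm9 and rn5, without their roles. How adapters were cut and reads with several matches were placed is not stated.

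From these counts, each sequence was assigned to a miRNA by its first 18 nt where these were the start of a name's most abundant sequence, and otherwise by its deposited name. Sequences printed for the minus strand were first turned back. The miRNA total of a library was its mature-labelled reads plus family reads under other labels, and log2 ratios used a pseudocount of 1 RPM. Reads of other miRNAs under other labels count in those miRNAs' values but not in this total; a total with all of them was an alternative. Reads were aligned without gaps to the mouse precursors of RefSeq (GRCm38.p6), and 3′ bases from the first mismatch at or after the next-to-last mature base were counted as added. Rat precursors were not used here. For miR-15a-5p, which was matched to its mature sequence, a base past its end counted as added where the deposited mismatches listed it.

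Of the mouse sequences, 2535 have no count, and a month and a year stand in place of the identifier. The main values omit them, and reading the month as the count was an alternative. A last mouse line without a sequence, which gives the total, was left out. With 1 library per species no test was possible. Shares carry exact Clopper-Pearson and counts exact Poisson 95% intervals, and ratios exact conditional intervals. All such intervals reflect the counting error of reads alone and not the spread between animals or libraries. PCR duplicates are not separate molecules, so the intervals can be too narrow for counts of molecules. Python 3.11.15, pandas 2.3.3, numpy 2.4.6 and scipy 1.17.1 were used, and the classification of ends was tested on simulated reads.

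The miRNAs named were all members found, the 5 miRNAs nearest to miR-16-5p in log2 ratio, 3 abundant comparators, a list of related miRNAs and lists of cell type markers. Members and lists were chosen with earlier results of these data known. The alternatives covered names, mismatches, lengths, low counts, scaling and pseudocounts.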

Additional observations from a re-analysis of the deposited data

How the results depend on the processing

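The family's log2 ratio of mouse over rat stayed between -1.34 and -1.08 under the alternatives of naming, mismatches, length, low counts and pseudocount, under the median ratio, and with all reads assigned to a miRNA as the base. The value of -1.34 came from sequences with no deposited mismatch, that of all listed reads was 0.33, with the opposite sign, and that without miR-16-5p was -0.39. The base of all listed reads gave a family share of 0.202% (mouse) and 0.161% (rat), and that of all reads assigned to a miRNA 5.09% and 11.2%. In the rat the share was 12.2% by name only and 15.5% with no deposited mismatch, and miR-16-5p held 97.1% of the family by name only. In the mouse, with sequences of at least 5 reads, miR-16-5p held 94.8% of the family and 0% of its reads had an added base. Weighted by distinct sequences, 20.8% (mouse) and 21.6% (rat) had an added base, and 25.0% and 47.1% were of 21 nt. The restored counts moved the log2 ratio of miR-15a-5p from -3.21 to -1.74. Apart from the base used, the cause of these shifts was not tested. Leaving out a replicate could not be tried with 1 library per species. No paired analysis was possible because each species has 1 library. Depth limits miR-497-5p, miR-322-5p and the 3p arms, which had at most 7 reads each.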
